A study of Mus musculus with 18 samples.

Results

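Cell cycle and DNA replication genes were followed in mouse embryos lacking 1 or both working copies of Nkx2-5, the heart homeobox factor also known as Csx. The list of 46 genes was drawn up by symbol, with earlier results of these data known. Every probe set annotated to 1 of those symbols alone was taken from both array types. A probe set is a group of oligonucleotide probes read as 1 value. In all 42 of the 46 genes had such a probe set, 57 probe sets together, of 13057 on the arrays. The mitotic genes Ccnb1, Cdc20, Cdc25b and Bub1b had none. By role, 15 genes belong to G1 and its control, 17 to DNA replication in S phase and 14 to G2 and mitosis.

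Total RNA came from embryos at embryonic day 9.5, cut in 3 with the middle kept, that the labels sort by Nkx2-5 into wild types, heterozygotes and homozygous mutants. Each of the 3 genotypes was hybridised to 3 arrays of type a and 3 arrays of type b, which carry different probe sets, so 18 arrays were used. Wild types are numbered 1, 5 and 7, heterozygotes 3, 4 and 8, and homozygous mutants 2 and 6 on both types, with a last mutant array 8a (type a) or 9b (type b), for which a shared RNA is not stated. The labels give no allele design, strain, somite stage, litter or pool size, so stage was not tested, and p-values cover the spread among these arrays alone, which may be technical. Nkx2-5 itself had no annotated probe set, and the genotypes rest on the labels. In tissue of mixed cell types, fewer cells of a type and less RNA per cell cannot be told apart.

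A dividing cell passes from G1, when cyclin D and cyclin E kinases release E2F factors from the retinoblastoma proteins, into S phase, when the MCM helicase, polymerases and nucleotide-making enzymes copy the genome. Cyclin A and cyclin B with Cdk1 then carry it into mitosis. Genes of G1 and S phase are switched on largely through E2F sites, and many mitotic genes through CCAAT boxes and the CHR element, bound by NF-Y and the DREAM or MuvB complexes.

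The promoters of 5 members are printed to show these elements beside the genes that the values turn on: Rrm2 and Cdk2ap1, which were lower in the mutants, the replication gene Mcm6, whose probe sets disagreed, and the mitotic genes Cdk1 and Ccnb2. Each run is the last 150 bases before the RefSeq start of the gene, read 5′ to 3′ on the strand of the gene in build GRCm38.p6. Capitals mark the letters of a searched motif on either strand.
Rrm2: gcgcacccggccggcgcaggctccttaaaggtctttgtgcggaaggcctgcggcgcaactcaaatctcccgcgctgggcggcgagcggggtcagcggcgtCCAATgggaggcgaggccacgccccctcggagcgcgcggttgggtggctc
Cdk2ap1: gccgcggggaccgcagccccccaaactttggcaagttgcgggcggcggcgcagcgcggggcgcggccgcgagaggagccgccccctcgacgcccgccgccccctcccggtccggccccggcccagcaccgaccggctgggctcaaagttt
Mcm6: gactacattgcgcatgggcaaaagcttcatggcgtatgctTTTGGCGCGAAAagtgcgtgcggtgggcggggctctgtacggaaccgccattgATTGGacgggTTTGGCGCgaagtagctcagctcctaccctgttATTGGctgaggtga
Cdk1: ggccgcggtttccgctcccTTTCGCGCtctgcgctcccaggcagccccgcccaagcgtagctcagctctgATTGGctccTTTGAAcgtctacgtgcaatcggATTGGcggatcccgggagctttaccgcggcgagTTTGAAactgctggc
Ccnb2: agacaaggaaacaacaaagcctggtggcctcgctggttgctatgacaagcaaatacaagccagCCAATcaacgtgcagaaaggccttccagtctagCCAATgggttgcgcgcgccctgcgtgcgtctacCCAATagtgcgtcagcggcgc
Those windows lie at chr12:24708104-24708253 on the plus strand for Rrm2 and chr5:124354629-124354778 on the minus strand for Cdk2ap1. They lie at chr1:128359706-128359855 for Mcm6, chr10:69352913-69353062 for Cdk1 and chr9:70421555-70421704 for Ccnb2, all on the minus strand. The search covered 250 bases before each start and used TTTCCCGC, TTTCGCGC, TTTGCCGC or TTTGGCGC for E2F, CCAAT for the CCAAT box and TTTGAA for CHR, on both strands. Overlapping matches were counted apart, and in Mcm6 an E2F match on each strand shares bases. Of 27025 genes with a promoter, 2.16% held the E2F letters, 37.5% the CCAAT letters and 18.3% the CHR letters. E2F letters were found in 4 of 12 G1 members, 4 of 15 S members and 1 of 8 mitotic members with a promoter sequence. CCAAT letters stood in 6 of 12, 10 of 15 and 8 of 8, and CHR letters in 0 of 12, 2 of 15 and 5 of 8. A match is a description of letters only. The called members Rrm2 and Cdk2ap1 held a CCAAT match and no E2F letters in the 250 bases, the match of Cdk2ap1 lying outside the printed run.

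Values are deposited intensities, read as linear with background already subtracted because dim probe sets can be negative. A floor of 2 noise SDs (375.1 for type a, 523.1 for type b) was set under them before taking log2. A probe set was tested if it passed the floor on at least 3 of 9 arrays of its type. That left 53 member probe sets for 41 genes, of 6935 probe sets for 3909 genes in all. The floor was passed on every array by 47 of the 53, and by the other 6 (2 of Cdkn1a, and 1 each of Bub1, Ccng1, Pola1 and Rbl1) on some arrays. Untested were the only probe set of Rb1, the retinoblastoma protein gene, at 206.0 to 347.4 on all arrays, a pair of dim type b probe sets of Cdkn1b and 1 of Tyms. A change is an adjusted p under 0.05 in limma's moderated test, adjusted by Benjamini-Hochberg over all 6935 probe sets.

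Arrays of type a had median intensities of 472.6 to 571.3, and those of type b 269.4 to 354.6. Arrays 8a and 9b stood apart in actin signal at the 3' over the 5' end, which climbs as RNA is degraded. The ratios were 2.5 and 2.28, against 0.967 to 1.41 and 0.849 to 1.40 on the others. Mean signal of the BioB control probe sets was also higher there, at 3950 and 4531, against 965.6 to 1539 and 1498 to 2320. Of 12 neural markers 11 had a probe set, 6 of them above the floor on all arrays, and the summed level of the 11 was 16620 to 22980 in wild types, 17320 to 21030 in heterozygotes and 8080 to 13410 in homozygous mutants. By marker, every mutant lay below every wild type at Hes5, Fabp7, Tubb3, Neurog2 and Dll1. Mutants and wild types overlapped at Sox2, Sox3, Nes, Pax6, Pax3 and Ncam1. The part of the neural markers in the lower values below was not tested. Heart sums (6 of 9 with a probe set, all 6 above the floor on every array) overlapped, at 103300 to 147000 in wild types and 83200 to 191400 in mutants. Endothelium sums (7 of 7, 4 above the floor on every array) were 9063 to 11860 in wild types, 8050 to 10820 in heterozygotes and 11170 to 20520 in mutants. The mutants thus overlapped the wild types and lay above the heterozygotes, and the part of this in the comparisons with heterozygotes was not tested. Erythroid (7 of 8) and mesenchyme (6 of 6) sums also overlapped, and none of the 6 liver and visceral endoderm markers was above the floor on all arrays.

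Homozygous mutants were compared with wild types to ask what loss of both alleles does to these genes. The nucleotide-making enzyme subunit Rrm2 and the Cdk2 regulator Cdk2ap1 fell, each at 1 probe set, and no member rose. The changes were 1.91-fold for Rrm2 and 1.72-fold for Cdk2ap1. Over all probe sets 48 changed, or 0.692%, against 2 of the 53 here. Of the member probe sets 41 were negative and 12 positive, 77.4% negative beside 53.1% over all tested probe sets. The median log2 fold change was -0.18 beside -0.02. Since members were chosen with earlier results of these data known, these shares describe the list and are no independent support.

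By phase, the median log2 fold change was -0.30 over 19 G1 probe sets, -0.17 over 21 S probe sets and -0.02 over 13 mitotic probe sets. Single replicates moved some of these: without wild type 1 the S median was -0.31 and the mitotic median -0.19, and without mutant 6 the S median was -0.34. The mitotic median was -0.09 without mutant 2, and turned positive without wild type 5 (0.05) or mutants 8a and 9b (0.03). Negative values numbered 15 of 19, 19 of 21 and 7 of 13. At an unadjusted p under 0.05, 10 member probe sets were lower (4 in G1, 6 in S) and 2 higher (both G1), where 5.48% of all probe sets were lower and 5.72% higher. No mitotic probe set reached that level, and the difference between phases was not tested. The lower probe sets came from fewer genes. In G1 they were both of Cdk2ap1 with those of Cdkn1a (type b) and Ccne1. In S they were several of Rrm2 with those of Fen1, Rrm1 and Tyms. The G1 median mixes genes of opposite roles, since Cdk2ap1 and Cdkn1a restrain Cdks and Ccne1 is a cyclin.

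**Figure D1:**
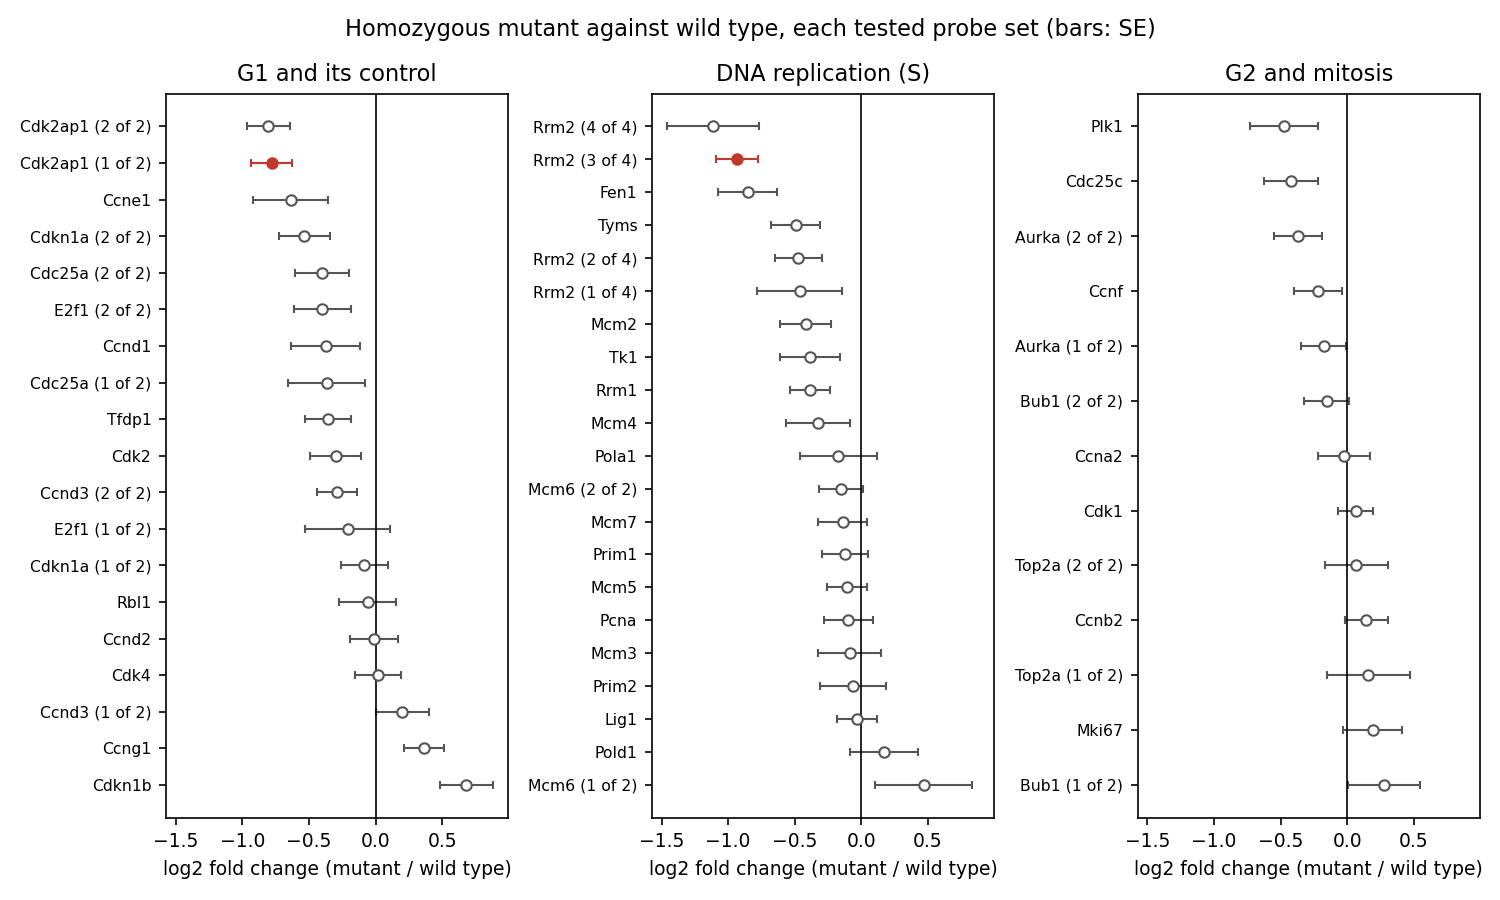
Log2 fold change of homozygous mutant over wild type (x axis) with its SE (bars) for each of the 53 tested member probe sets, in panels for G1, S and mitotic genes. Filled red points passed an adjusted p under 0.05 (Rrm2 and Cdk2ap1, 1 probe set each). Of the S probe sets 19 of 21 lie left of 0, and of the mitotic ones 7 of 13.

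Per replicate, the median deviation of the G1 probe sets from the wild-type mean was -0.25, -0.21 and -0.40 for mutants 2, 6 and 8a with 9b. Wild types lay at -0.09, 0.11 and -0.06, and heterozygotes 3, 4 and 8 at 0.01, -0.03 and 0.10. For S genes the mutants were at -0.32, -0.18 and -0.35, against -0.13 to 0.08 in wild types and 0.02 to 0.11 in heterozygotes. In both phases all 3 mutants lay below the other 6 replicates. The list was chosen with earlier results known, and no such median was taken over all tested probe sets. Rrm2 enters the S median with 4 probe sets and Cdk2ap1 the G1 median with 2. For mitotic genes they were at -0.10, -0.09 and -0.03, inside the wild-type range of -0.26 to 0.13, in which wild type 1 was the low replicate.

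**Figure D2:**
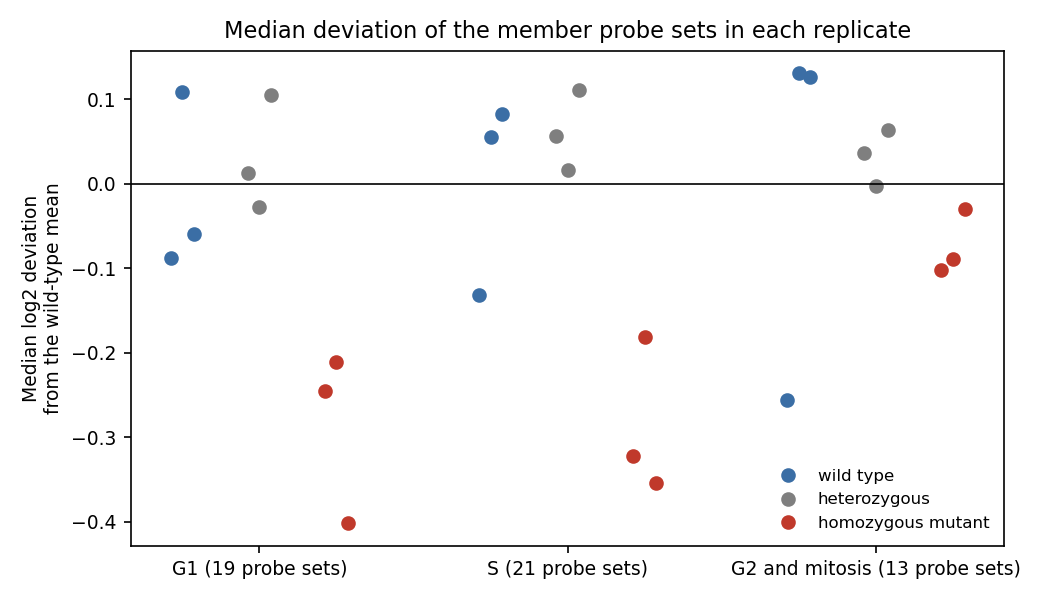
Median log2 deviation from the wild-type mean (y axis) of the tested member probe sets of each phase, 1 point per replicate. Blue points are wild types, grey points heterozygotes and red points homozygous mutants, which are the 3 lowest for G1 and S and lie inside the wild-type range for mitotic genes.

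In G1, the called gene was Cdk2ap1, whose protein binds and restrains Cdk2. Its probe set AF011644_g_at read 15525, 18040 and 14322 in wild types 1, 5 and 7, 16938, 16805 and 14554 in heterozygotes 3, 4 and 8, and 7961, 10257 and 9702 in homozygous mutants 2, 6 and 8a. All mutants lay below all 6 other arrays, and wild types and heterozygotes overlapped. The mean fell from 15960 ± 1897 (SD, n = 3) to 9307 ± 1198, or -0.78 on the log2 scale (SE 0.15, adjusted p = 0.0440). A second probe set of the same transcript, AF011644_at, read 17810, 19533 and 15447 in wild types, 17673, 19014 and 16394 in heterozygotes and 9687, 12098 and 8586 in mutants. Its log2 fold change was -0.81 (SE 0.16) with an adjusted p of 0.0505, just short of a call. The call at AF011644_g_at was narrow: leaving out any single array other than mutant 8a ended it, with adjusted p-values of 0.0572 (without heterozygous 8) to 0.192 (without wild type 5) and log2 fold changes of -0.67 to -0.85. Without 8a it was -0.81 (adjusted p = 0.0454).

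The Cdk inhibitors differed. Cdkn1b, or p27, which blocks cyclin E and cyclin A kinases, read 1541, 1266 and 1392 in wild types, 1303, 1231 and 1195 in heterozygotes and 2423, 2226 and 2067 in mutants. Every mutant lay above the other 6 arrays, yet the log2 fold change of 0.68 (SE 0.20) did not pass (adjusted p = 0.188). Cdkn1a, or p21, the inhibitor induced by p53, read 644.7, 744.6 and 905.3 in wild types on type b, 1025, 969.3 and 856.1 in heterozygotes, and 45.5, 99.1 and 50.1 in mutants. The mutants were under the floor and apart from the others, so the fold is a bound, at least 1.45-fold lower, and did not pass (adjusted p = 0.313). With the floor at 1 noise SD the log2 fold change was -1.53 (adjusted p = 0.0455), and with a generalised log2 without floor -1.51 (adjusted p = 0.0210). The type a probe set of Cdkn1a was dim in every genotype, with 1 wild type, 2 heterozygotes and 1 mutant above the floor, and gave -0.08 (SE 0.18). A type b probe set annotated to Cdkn1a and 4930567H12Rik together, not counted as a member, went the other way. It read 841.1 ± 153.2 (SD) in mutants against 541.1 ± 51.7 in wild types.

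Ccng1, a cyclin-like p53 target, was the other member above all other arrays, at 705.9, 759.7 and 683.8 in mutants. Wild types read 310.6, 383.1 and 628.7 and heterozygotes 581.9, 323.0 and 534.7, and only 1 wild type and 2 heterozygotes exceeded the floor. Its log2 fold change was 0.36 (SE 0.15, adjusted p = 0.388). Ccne1, the cyclin E that starts S phase, read 2982, 5037 and 6174 in wild types, 4399, 5183 and 5589 in heterozygotes and 3375, 2187 and 3336 in mutants. Its groups overlapped through wild type 1, and the log2 fold change was -0.64 (SE 0.28, adjusted p = 0.428). Tfdp1, the dimer partner of E2F, read 4748, 5674 and 6026 in wild types, 6281, 6478 and 5088 in heterozygotes and 4365, 4399 and 4023 in mutants, with no overlap but no call (-0.36, SE 0.17, adjusted p = 0.473).

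The other G1 members did not pass. Cdk2, the kinase that Cdk2ap1 binds, lay in every mutant (1604 to 1826) below the other arrays (1952 to 2713), at -0.30 on the log2 scale (SE 0.19). The transcription factor E2f1 gave -0.40 and -0.21 at its probe sets, the phosphatase Cdc25a -0.40 and -0.37, and cyclin D1 (Ccnd1) -0.37. The cyclin D partner Cdk4 was at 0.02 (SE 0.17), Ccnd2 at -0.01 (SE 0.18) and the pocket protein gene Rbl1 at -0.06 (SE 0.21). Ccnd3 gave -0.29 at one probe set, with mutants below the other 6 arrays, and 0.20 at another.

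Among S genes, those that make deoxynucleotides are taken first. Ribonucleotide reductase turns ribonucleotides into deoxynucleotides, and Rrm2 encodes its small subunit, which cells make mainly in S phase. Probe set m14223_s_at of Rrm2 read 5962, 8363 and 7178 in wild types 1, 5 and 7, 7443, 7080 and 7849 in heterozygotes 3, 4 and 8, and 3295, 4179 and 3710 in mutants 2, 6 and 8a. The highest mutant was below the lowest other array. The mean fell from 7168 ± 1200 (SD, n = 3) to 3728 ± 442.3, or -0.94 on the log2 scale (SE 0.16, adjusted p = 0.0190).

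That call ended when wild type 5 (-0.82, adjusted p = 0.0949), wild type 7 (-0.93, adjusted p = 0.0867), heterozygous 3 (-0.94, adjusted p = 0.0531) or mutant 2 (-0.85, adjusted p = 0.0865) was left out. Without mutant 8a it held at -0.94 (adjusted p = 0.0392). The type b probe set of Rrm2 read 12420, 13905 and 8147 in wild types, 13303, 14641 and 8515 in heterozygotes and 7075, 6654 and 2966 in mutants 2, 6 and 9b. Its mutants too were below all others, at the most negative log2 fold change of any member, -1.11, with a wide SE of 0.34 (adjusted p = 0.225). Another type a probe set read 12899, 13225 and 9302, then 13101, 13303 and 11399, then 8496, 9790 and 7108 in the same order, a log2 fold change of -0.47 (SE 0.18) with 1 wild type inside the mutant range. The dimmest read 1166, 1734 and 896.8, then 1634, 1838 and 958.8, then 973.7, 831.5 and 853.9, with overlap and a value of -0.46 (SE 0.32).

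Rrm1, the large subunit, read 5270, 5258 and 4256 in wild types, 4757, 4564 and 4794 in heterozygotes and 3788, 4149 and 3363 in mutants, without overlap (-0.39, SE 0.15, adjusted p = 0.342). Tyms, thymidylate synthase, read 2760, 2814 and 3867, then 2821, 2786 and 3357, and in mutants 2115, 2436 and 2091 (-0.49, SE 0.18, adjusted p = 0.327). Its mutants were also below all other arrays, as were those of Tk1, the salvage enzyme thymidine kinase, at 1515 to 1749 against 1846 to 3286 (-0.39, SE 0.23).

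Fen1, the nuclease that trims Okazaki fragments, read 2184, 2394 and 3555 in wild types, 2535, 2692 and 3619 in heterozygotes and 1470, 1491 and 1436 in mutants. The mutants were tightly grouped below the rest, and wild type 7 and heterozygous 8 were the high arrays. Its log2 fold change was -0.85 (SE 0.22, adjusted p = 0.127). Lig1, the ligase of the same step, was near 0 (-0.03, SE 0.15), as was the sliding clamp Pcna (-0.10, SE 0.18).

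Of the helicase genes, Mcm2 read 6026, 8275 and 5623 in wild types, 8008, 8060 and 5929 in heterozygotes and 4129, 5562 and 5118 in mutants, with no overlap (-0.42, SE 0.19, adjusted p = 0.453). Mcm4 was at -0.32 (SE 0.24), Mcm7 at -0.14, Mcm5 at -0.11 and Mcm3 at -0.09. The primase subunits Prim1 and Prim2 were at -0.13 and -0.06, and polymerase alpha (Pola1) at -0.17. Polymerase delta (Pold1) was positive at 0.17 (SE 0.25), where mutant 9b read 4749 and the other 8 arrays 2493 to 3211.

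Mitotic genes did not pass in any case. Cdk1, the mitotic kinase, read 15269, 16561 and 13691 in wild types, 15514, 15271 and 15811 in heterozygotes and 16711, 15648 and 15106 in mutants. The groups overlapped throughout, at a log2 fold change of 0.06 (SE 0.13). Its partner Ccnb2, cyclin B2, gave 0.14 (SE 0.16) with mutants at 4841 to 6226 and wild types at 4851 to 5503. Cyclin A2 (Ccna2) gave -0.02 (SE 0.19), the proliferation marker Mki67 0.19 (SE 0.22), and topoisomerase Top2a 0.16 (SE 0.31) and 0.07 (SE 0.24).

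The lowest mitotic values were those of the kinase Plk1 (-0.47, SE 0.25), the Cdk1-activating phosphatase Cdc25c (-0.42, SE 0.20) and the spindle kinase Aurka (-0.37, SE 0.18, and -0.18, SE 0.17). Cdc25c read 1667, 1992 and 2078 in wild types, 1883, 1805 and 1668 in heterozygotes and 1258, 1433 and 1592 in mutants, the one mitotic probe set with mutants below all other arrays (adjusted p = 0.462). Plk1 overlapped, with mutant 2 the low array at 2838. Cyclin F (Ccnf) was at -0.22, and the checkpoint kinase Bub1 at 0.28 and, at a probe set under the floor in every mutant, -0.15.

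**Figure D3:**
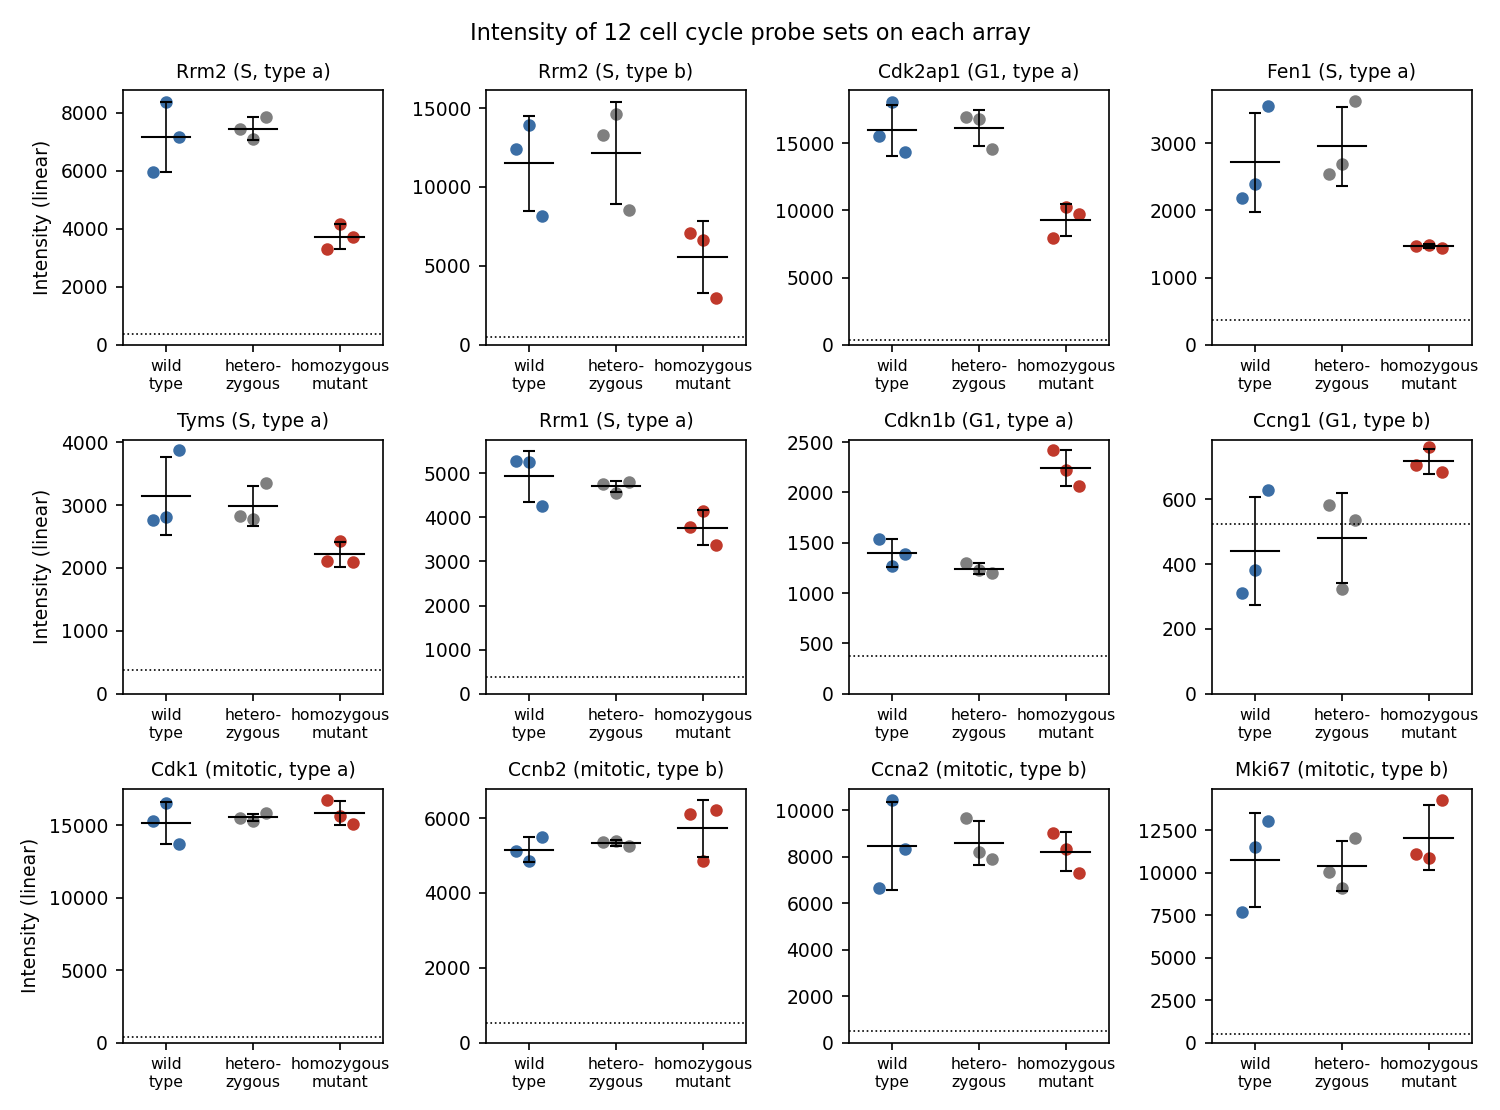
Intensity on a linear scale (y axis) of 12 member probe sets, 1 point per array for wild types (blue), heterozygotes (grey) and homozygous mutants (red), with mean and SD (n = 3). The dotted line is the floor of the array type. Mutants lie below the other 6 arrays for the Rrm2 probe sets shown, Cdk2ap1, Fen1, Tyms and Rrm1, and above them for Cdkn1b and Ccng1. They lie on no single side of them for Cdk1, Ccnb2, Ccna2 and Mki67. At the Rrm2 probe sets not shown, mutants overlapped other arrays.

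Counted over the members, every mutant array lay below all 6 other arrays at 14 probe sets of 12 genes: Cdk2ap1 (2 probe sets), Cdkn1a, Cdk2, Ccnd3, Tfdp1, Rrm2 (2), Rrm1, Tyms, Tk1, Fen1, Mcm2 and Cdc25c. Over all tested probe sets 5.97% did so. Mutants lay above all others at 2 member probe sets, Cdkn1b and Ccng1, where 5.51% of all did. By phase the lower count was 6 of 19 in G1, 7 of 21 in S and 1 of 13 in mitosis. These counts too describe a list chosen with earlier results known.

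Agreement between probe sets of one gene could be read for 10 members, 4 of them on both array types. In homozygous mutants against wild types the signs agreed for 7 genes: Cdk2ap1, Rrm2, Cdc25a, Cdkn1a, E2f1, Aurka and Top2a. They were opposite for Bub1, Ccnd3 and Mcm6. Only probe sets annotated to a single symbol were counted. For Cdkn1a, a type b probe set shared with 4930567H12Rik was higher in mutants, against the sign of those counted. The range between probe sets of a gene had a median of 0.31 on the log2 scale and was widest for Rrm2, 0.65, whose 4 probe sets were all negative. Closest were Cdk2ap1, at 0.03 apart, and Cdc25a, also 0.03. The probe sets of Cdk2ap1 carry the same sequence name, AF011644, so they may not be independent readings. Mcm6, a helicase subunit, gave 0.47 (SE 0.36) at a probe set that read 1335 to 3848 over the arrays and -0.16 (SE 0.16) at one that read 7050 to 10453.

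**Figure D4:**
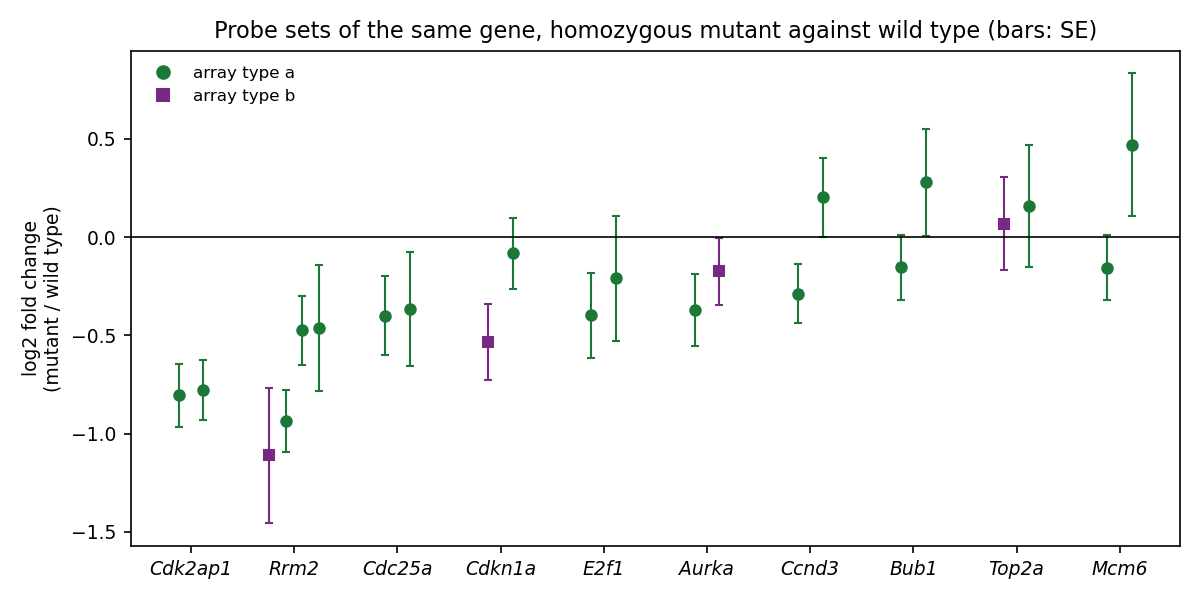
Log2 fold change of homozygous mutant over wild type (y axis) with SE for each probe set of the 10 members that have 2 or more, green circles on type a and purple squares on type b. The 4 probe sets of Rrm2 span -1.11 to -0.46, and those of Ccnd3, Bub1 and Mcm6 lie on both sides of 0.

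Heterozygotes were compared with wild types to ask what loss of 1 allele does. No member changed, and none of all 6935 probe sets did, 0%. No member reached an unadjusted p under 0.05 either, where 30 of all probe sets were lower and 88 higher at that level. Median log2 fold changes were 0.04 in G1, 0.08 in S and 0.04 in mitotic genes, beside 0.03 over all. The largest differences were those of dim probe sets: Cdkn1a on type b at 0.32 (SE 0.19), Rbl1 at 0.29 (SE 0.21) and Pola1 at 0.25 (SE 0.29). Rbl1 read 205.2, 472.9 and 294.5 in wild types and 356.0, 495.3 and 657.7 in heterozygotes, and its mutants read 313.3, 417.4 and 83.4, with 4 of the 9 above the floor. Pola1 read 490.2, 829.1 and 514.3 in wild types, 617.3, 817.7 and 702.9 in heterozygotes and 588.1, 661.2 and 317.7 in mutants, and all groups overlapped. Ccnf, a cyclin-box protein that targets partners for breakdown, read 4300, 5304 and 5939, then 5305, 5721 and 6276, then 4151, 4204 and 4920, with 0.16 (SE 0.18). Cdkn1b was at -0.17 (SE 0.20), and every one of these differences had an adjusted p of 1. Signs agreed for 4 of the 10 genes with several probe sets.

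Homozygous mutants were also compared with heterozygotes, which differ by the remaining allele. The same mutant arrays enter here as above, so these values are not independent of those against wild type. Rrm2 fell at m14223_s_at by 1.01 on the log2 scale (SE 0.16, adjusted p = 0.0120). Cdk2ap1 fell at both probe sets, by 0.80 (SE 0.15, adjusted p = 0.0319) and 0.82 (SE 0.16, adjusted p = 0.0358). These 3 are the calls among 53 member probe sets, where 80 of all, 1.15%, changed.

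Removing 1 array ended these calls in several cases. For Rrm2 these were heterozygous 3 (-1.01, adjusted p = 0.0772), heterozygous 4 (-1.04, adjusted p = 0.0635) and mutant 2 (-0.92, adjusted p = 0.0636). For Cdk2ap1 at AF011644_g_at they were heterozygous 3 (adjusted p = 0.158), 4 (adjusted p = 0.187) and 8 (adjusted p = 0.0624) and mutant 2 (adjusted p = 0.108). At AF011644_at the call also ended without wild type 1, wild type 5 or mutant 8a, and the adjusted p reached 0.203 without heterozygous 4. Below the threshold came Fen1 (-0.99, SE 0.22, adjusted p = 0.0564), Cdkn1a on type b (at least 1.81-fold lower, adjusted p = 0.0596) and Cdkn1b (0.85, SE 0.20, adjusted p = 0.0654). Fen1 passed when wild type 7 was left out (adjusted p = 0.0472). Cdkn1a passed with the floor at 1 noise SD, at -1.86 on the log2 scale (adjusted p = 0.0167), and with the generalised log2, at -1.78 (adjusted p = 0.0104).

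The phase medians against heterozygotes were -0.37 in G1, -0.33 in S and -0.06 in mitotic genes, beside -0.07 over all. At an unadjusted p under 0.05, 16 member probe sets were lower (7 in G1, 8 in S, 1 mitotic) and 2 higher, where 8.51% of all were lower and 7.21% higher. Among the lower ones Cdk2ap1 counted at both of its probe sets and Rrm2 at several, so the genes were fewer. Probe sets of one gene had the same sign for 5 of 10 genes, and Cdkn1a had the widest range, 0.87.

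Other genes of the pathway were taken from a list of 114 further genes, of which 66 were tested with 81 probe sets. Where 0.692% of all tested probe sets changed against wild type, 1 of the 81 passed, lower, and none rose. It was Cdkn1c, or p57, a Cdk inhibitor of embryonic tissues, with 7174, 6165 and 5731 in wild types, 5521, 6100 and 5296 in heterozygotes and 4057, 2706 and 2859 in mutants (2.01-fold lower, SE 0.18 on the log2 scale, adjusted p = 0.0217). Its type b probe set gave -1.19 on that scale (SE 0.26, adjusted p = 0.0709), and there heterozygotes 3 and 4 read 4148 and 4914, near the mutants (3423 to 4733), while heterozygous 8 read 7895, inside the wild-type range (7784 to 11486). The median log2 fold change was 0.06 over 13 G1 probe sets, -0.20 over 29 S probe sets, 22 of them negative, and -0.03 over 39 mitotic probe sets. The further S genes thus had a median close to that of the 21 member probe sets of S. The further G1 genes did not share the negative median of the G1 members. This further list was also chosen with earlier results known.

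Against heterozygotes 3 of the 81 further probe sets passed, where 1.15% of all tested probe sets changed. On the log2 scale Cdkn1c fell by 0.84 (adjusted p = 0.0486), Rcc1, the exchange factor of the GTPase Ran, fell by 1.11 (adjusted p = 0.0268), and Ccng2, a cyclin-like gene linked to cell cycle arrest, rose by 1.53 (adjusted p = 0.0319). Ccng2 read 834.7, 822.3 and 668.4 in wild types, 610.6, 586.2 and 588.3 in heterozygotes and 2187, 2068 and 1116 in mutants, all 3 above the others, and gave 1.15 against wild type (SE 0.29, adjusted p = 0.120). Rcc1 gave -0.80 against wild type (SE 0.20, adjusted p = 0.119). The next smallest p-values against wild type, none past the threshold, included that of Cks1b in G1 (-0.20). In S they were those of the origin-licensing factor Cdc6 (-0.89), the histone H2ax on type b (-0.50) and the histone mRNA binder Slbp (-0.45). In mitosis they were those of Ranbp1 (-0.43) and Bub3 (-0.25). The type a probe set of H2ax gave -0.10 (SE 0.26).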

How the data were processed

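The deposited files hold 1 intensity per probe set. The linear scale and the background subtraction were read from the values, some of which are negative. The array software and the scaling target were not given in the sources used here. Genes were named from the platform annotation, with 7542 of 13057 probe sets carrying 1 symbol. After setting the floor at 2 noise SDs (1 SD from the negative values of the array type) and taking log2, each type was fitted on its 9 arrays with limma 3.58.1 in R 4.3.3 (lmFit, eBayes with an intensity trend, two-sided), which was checked on simulated data. All genotypes shared 1 estimate of the spread. Heterozygous 8 of type b lacks 499 values, none of a member. Precision is limited by having 3 arrays of each type per genotype.

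Genes shown by array were those past the threshold, the 12 members of smallest p against wild type and the 5 for each other comparison, and the 3 of smallest p per phase in the further list. Other examples were chosen after their values were seen. Members and lists were chosen with earlier results of these data known. The alternatives were other floors, a generalised log2, other filters, quantile normalization, no trend, fewer genotypes and leaving out each replicate.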

Additional observations from a re-analysis of the deposited data

How the results depend on the processing

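The members followed one by one through the alternatives were those past the threshold or of smallest p, and the other named members were not. Directions of the followed members, and of the mutant phase medians in G1 and S against the other genotypes, held under all alternatives run. The number of member probe sets past the threshold did not: it was 2 against wild type, and 0 with no filter on low values, 0 without the intensity trend and 0 with only the compared genotypes fitted, while leaving out single replicates gave 0 to 2. Against heterozygotes it was 3, and 5 with the generalised log2, 1 with no filter, 1 with only the compared genotypes, and 0 to 4 over the replicates left out. It stayed at 0 between heterozygotes and wild types. The cause was not tested. The mitotic median against wild type, -0.02, was 0.02 (0.0192) with the floor at 4 noise SDs and 0.0192 with the floor passed on 6 arrays. Leaving out replicates moved it from -0.19 to 0.047, the S median against wild type from -0.34 (without mutant 6) to -0.17, and the mitotic median against heterozygotes from -0.12 to -0.013. Between heterozygotes and wild types the S median ran from -0.0027 to 0.079 and the mitotic median from -0.11 to 0.10, with the lowest values in both without wild type 1. Rrm2 (m14223_s_at) kept its call against wild type in 10 of 17 alternatives and Cdk2ap1 (AF011644_g_at) in 4 of 17. Against heterozygotes the counts were 13 and 10, and 7 for Cdk2ap1 at AF011644_at. Cdkn1b passed against heterozygotes in 4 of 17, with no filter, the generalised log2, quantile normalization or no trend. Over all probe sets the calls against wild type ran from 7 to 55, and against heterozygotes from 14 to 95. No paired analysis was possible because the genotypes share at most 1 replicate number. Values near the floor understate a change, and Cdkn1a is limited by it.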

Other observations

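Probe sets annotated to a member together with another gene were kept out of the comparisons. One of Ccnd1 and LTO1 on type b read 12955, 9672 and 10334 in wild types, 9547, 10870 and 12179 in heterozygotes and 8068, 6918 and 7867 in homozygous mutants, so the mutants were below the other 6 arrays. One of Cdkn1a and 4930567H12Rik on type b read 541.1 ± 51.7 (SD, n = 3) in wild types, 547.7 ± 114.9 in heterozygotes and 841.1 ± 153.2 in homozygous mutants, with the lowest mutant, 676.9, above the highest heterozygote, 676.7. The probe set annotated to Cdkn1a alone on the same arrays was under the floor in every mutant, so the directions were opposite.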
